A study of Mus musculus with 42 samples.

Results

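Wounds treated with PDGF were compared with wounds given a control protein on day 7, in 3 PDGF arrays and 5 control arrays out of the 42 arrays of the series. The arrays were chosen by their labels (treatment PDGF or Anti-ragweed, time point 7d), and gene expression was read from all 20672 probe sets of the deposited table, of which 17928 are paired with a single symbol, 79 with more than 1 and 2665 with none. Both groups were female db/db mice, which are obese and diabetic because they lack a working leptin receptor, and no lean animals enter the comparison. Each mouse was wounded in the skin on day 0 and dosed on the wound on days 0, 2, 4 and 6. The PDGF group received 50 µg of PDGF per dose, named recombinant PDGF-BB in the protocol text. The control group received an anti-ragweed antibody, an antibody against a plant pollen antigen, which the protocol text calls control Fc. The strain is labelled C57BL/6, whereas the paper's methods name its db/db mice as BKS.Cg and list C57BL/6 mice apart. The design planned 5 mice in each group, and 3 PDGF arrays were analysed here. Other groups used below are VEGF and IL-22-Fc wounds of day 7, wounds 24 h after 1 dose, and untreated skin of day 0. The labels give VEGF as 20 µg and no dose for IL-22-Fc on day 7, whereas the paper's methods give 50 µg for each. The genotype of the untreated skin is not in the labels. RNA came from the skin cut out around the wound, so fewer cells of a type and less RNA per cell cannot be told apart in any value that follows. The labels do not tie arrays to animals, and every p-value measures the spread between arrays.

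PDGF is a family of paired-chain growth factors that platelets and macrophages release at a wound. Its receptors, PDGFR-alpha and PDGFR-beta, are tyrosine kinases on fibroblasts, pericytes and smooth muscle cells, and PDGF-BB binds both. An activated receptor recruits PI3-kinase, the Ras GTPase-activating protein, phospholipase C-gamma and adaptor proteins, and drives the movement and division of these cells and the laying down of new matrix. Macrophages of a healing wound can enter the alternatively activated state, which the cytokines IL-4 and IL-13 induce through the transcription factor STAT6 and which is known for Retnla, the Chil3 and Chil4 chitinase-like proteins and Arg1. The integrated stress response is a program in which a shortage of amino acids or a load of unfolded protein raises the transcription factor ATF4, which in turn switches on genes for amino acid synthesis and uptake.

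With PDGF, 1338 probe sets were higher and 1977 lower than in the control. These are 6.47% and 9.56% of all probe sets, at an adjusted p under 0.05 in limma (from a fit of the 18 day 7 arrays, with Benjamini-Hochberg adjustment across the whole table) and a change of at least 1.5-fold. A gene that met both conditions is called higher or lower below. Each list count below is to be read beside these shares of all probe sets, 6.47% higher and 9.56% lower. All levels are the log2 of the deposited intensity, on which the median probe set of a day 7 array lay between 5.64 and 5.70, and all differences are PDGF minus control on that scale. The values carry no detection call, so a difference from a group near the bottom of the scale, which may be background, is a lower bound. The 3 PDGF arrays were close to each other, with correlations of 0.9925 to 0.9953 across probe sets, and further from the control arrays (0.9639 to 0.9778), which among themselves had 0.9882 to 0.9959. In 19.4% of probe sets every PDGF array lay above every control array, and in 16% below. The tissue carried the markers of skin in both groups. Krt5, a keratin of basal keratinocytes, was at 13.30 to 13.66 with PDGF and 12.90 to 13.22 in the control, and Krt1, a keratin of the suprabasal layers, at 13.52 to 13.62 and 13.59 to 13.89. Krt25, a keratin of growing hair follicles, was at 2.51 to 2.83 with PDGF and 2.50 to 2.78 in the control, among the lowest levels of the table.

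The PDGF arrays stood apart in the control probe sets that sit at the 5' end of the Gapdh and Actb transcripts. These were examined because they were already known to be low in these arrays, so their values are a description, given with no test. Affymetrix places such probe sets there because array labelling starts at the 3' end of a transcript, so that broken RNA or short labelled copies lower the 5' signal. The 5' Gapdh probe set was at 11.26, 11.58 and 11.60 with PDGF, against 12.99, 12.86, 12.82, 12.91 and 12.92 in the control. The groups did not overlap, and the means of 11.48 ± 0.19 (SD, n = 3) and 12.90 ± 0.06 (SD, n = 5) differed by -1.42, a level 2.68-fold lower. The 5' Actb probe set was at 12.57, 12.78 and 12.62 against 13.30, 13.28, 13.43, 12.99 and 13.43. These did not overlap either, and differed by -0.63, or 1.54-fold. No matching 3' probe sets were analysed here, so a low 5' signal and lower expression of Gapdh and Actb cannot be told apart.

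**Figure D1:**
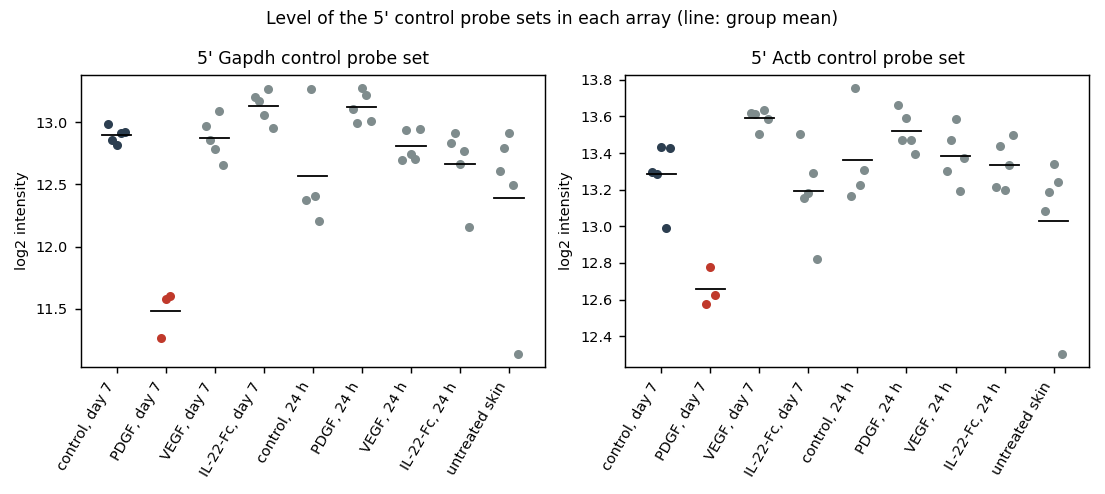
Log2 intensity of the 5' control probe sets of Gapdh (left) and Actb (right) in each of the 42 arrays by group, with a line at each group mean. The 3 PDGF arrays of day 7 lie between 11.26 and 11.60 for Gapdh, below all 5 control arrays, and untreated skin array 5 is the other array at that level, at 11.14.

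A pair of other arrays whose 5' Gapdh level was low within their own group, chosen after their values were seen, were set beside the PDGF difference. Untreated skin array 5 had 5' Gapdh at 11.14 and 5' Actb at 12.30, where the other untreated arrays had 12.50 to 12.92 and 13.09 to 13.34. IL-22-Fc array 5 at 24 h had 5' Gapdh at 12.16, below the 12.66 to 12.92 of its group, while its 5' Actb of 13.50 was the highest of its group, and 3 control arrays at 24 h had 5' Gapdh levels of 12.21 to 12.41. Each was taken minus the mean of the other 4 arrays of its group, and neither enters the comparison of PDGF with the control. Of the 1977 probe sets called lower with PDGF, 52.6% were at least 1.5-fold lower in the untreated array too, against 9.31% of those not called, and 29.6% in the IL-22-Fc array, against 1.01%. For the 1338 called higher, the shares higher were 25.8% against 11.5% and 12.1% against 1.79%. Each count below of called list members that also moved in these arrays is to be read beside these shares of all calls. The correlation with the PDGF difference across 20672 probe sets, which share arrays and are not independent, was 0.31 for the untreated array and 0.56 for the IL-22-Fc array. The untreated array differs from its group in hair genes as well, with Krt25 higher by 10.74 and Krt71 by 7.04. The share was larger for lower than for higher calls in both arrays, and the part of the 5' level in the PDGF difference was not tested.

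**Figure D2:**
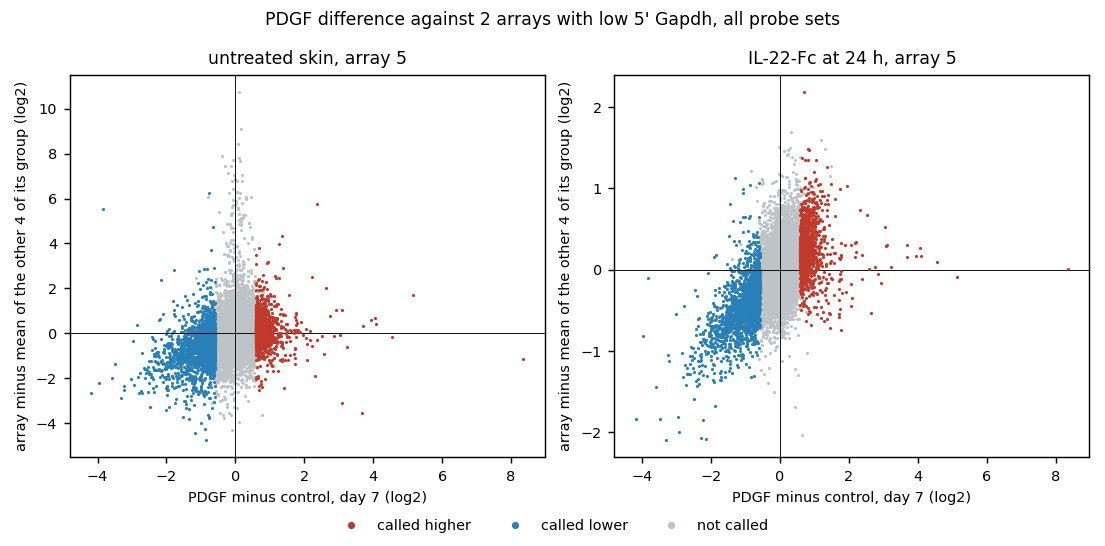
Each point is a probe set, with the day 7 difference of PDGF minus control on the x axis and, on the y axis, untreated skin array 5 (left) or IL-22-Fc 24 h array 5 (right) minus the mean of the other 4 arrays of its group, all on the log2 scale. Probe sets called lower with PDGF (blue) lie mostly below 0 on the y axis in both plots, and those called higher (red) spread around it on the left and lie more above it on the right.

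PDGF array 1 stood apart from the other 2 PDGF arrays. It had the lowest 5' Gapdh level, at 11.26, and was the lowest of the 3 in 75.2% of the 1977 lower calls, against 10.6% for array 2 and 14.2% for array 3. It was the highest of the 3 in 57.1% of the 1338 higher calls, against 28.8% for array 2 and 14.1% for array 3. Arrays 2 and 3 lay close for 5' Gapdh, at 11.58 and 11.60, and in the opposite order for 5' Actb, at 12.78 and 12.62. Between these 2 arrays the share of higher calls followed the order of 5' Gapdh and the share of lower calls that of 5' Actb. Among probe sets that were not called, array 1 was the lowest in 30.7% and the highest in 40.4%. A fit that took the mean level of both 5' probe sets as a covariate left 52 probe sets higher (0.252%) and 131 lower (0.634%), of which 43 and 121 were also called without it. In that fit the standard error of the PDGF difference rose 3.08-fold (median), since the 5' level correlated with membership of the PDGF group at -0.956 over the 18 arrays. The differences themselves kept their sign in 93.9% of the 3315 calls, at a median of 0.859 of their size. The values of that fit are given below as covariate values.

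The genes of the PDGF system itself differed little, apart from Pdgfd. Of its 7 ligands and receptors, 0 were called higher and 2 lower, where 6.47% and 9.56% of all probe sets were. Pdgfd, a ligand of PDGFR-beta, was at 2.89, 2.75 and 2.91 with PDGF and at 4.93, 4.55, 4.65, 4.70 and 5.03 in the control. All PDGF arrays were near the bottom of the scale and below every control array, and the difference was -1.92 (standard error, SE, 0.14, adjusted p = 1.0e-09 from limma; covariate value -2.10, adjusted p = 0.023). Pdgfd was also lower, at -1.04, in the untreated array with a low 5' Gapdh level and at -0.95 in the IL-22-Fc array. Pdgfrl, a receptor-like protein, was the other member called lower, at -0.90. Pdgfb, which encodes the chain of PDGF-BB, had a difference of 0.54, under the fold threshold although its adjusted p was 0.0070 in limma, and was called, at 0.61, without control array 5. Pdgfra, the alpha receptor, differed by 0.51 with an adjusted p of 0.0017. Pdgfrb, the beta receptor, was at 10.41 to 10.78 with PDGF and 10.17 to 10.73 in the control and did not pass, at 0.15 (adjusted p = 0.36 from limma), nor did Pdgfa at 0.09 and Pdgfc at 0.19.

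Of the 20 measured components of PDGF receptor signalling, 3 were higher and 5 lower, where 6.47% and 9.56% of all probe sets were. Their median difference was -0.04, where the median of all probe sets was 0.04. The lower ones included Rasa1, the Ras GTPase-activating protein that docks on PDGFR-beta, at -1.88, Pik3r1, the main regulatory subunit of PI3-kinase, at -1.84, Akt1, a kinase downstream of it, at -1.06, and the adaptor Nck1 at -0.70. Pik3r2, the other common regulatory subunit, was higher by 0.68. Plcg1, phospholipase C-gamma, and the adaptor Grb2 were not called, at 0.19 and 0.24. All 5 lower members were at least 1.5-fold lower in the untreated array with a low 5' Gapdh level as well, and 2 of them in the IL-22-Fc array. Pik3r1 had a covariate value of -1.92 (adjusted p = 0.029) and Rasa1 one of -1.30 (adjusted p = 0.17).

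Genes of alternatively activated macrophages were among the largest rises with PDGF. Of the 18 measured genes of this state, 11 were higher and 0 lower, with a median difference of 0.80. In 14 of the 18 every PDGF array was above every control array, against 19.4% of all probe sets. Of the 11 higher members 3 were at least 1.5-fold higher in the untreated low 5' Gapdh array and 0 in the IL-22-Fc array. Among all higher calls these shares were 25.8% and 12.1%. The summed intensity of the list was 48676 to 55199 in the PDGF arrays and 12429 to 14453 in the control arrays. Rnase2a, Retnla, Slc7a2, Chil4 and Ccl24 led all higher genes of the comparison, and 3 of these 5 are members of the list.

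**Figure D3:**
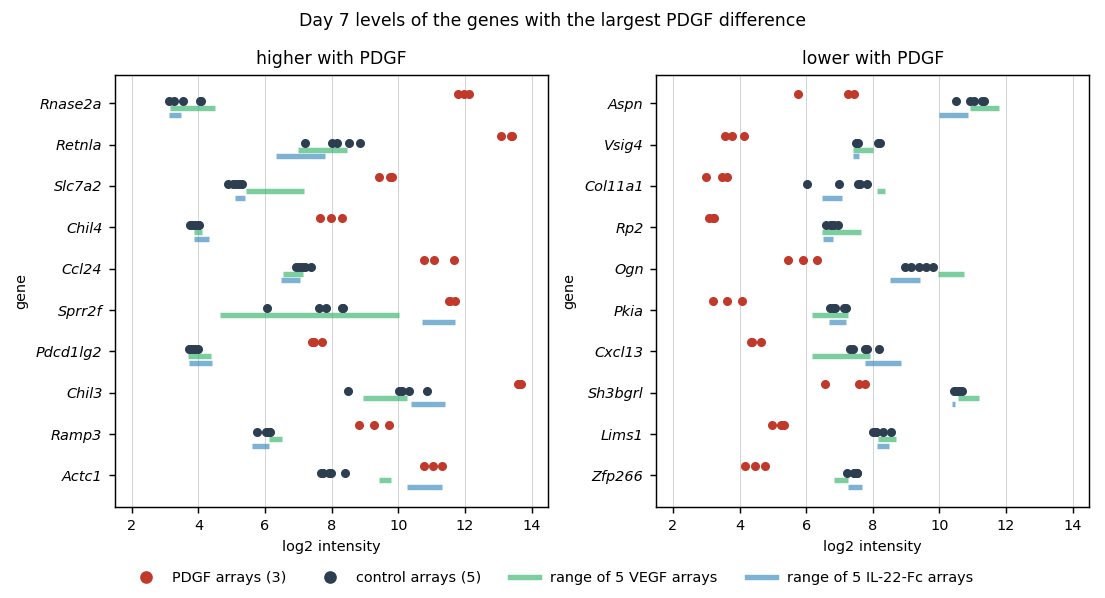
Log2 intensity on day 7 of the 10 genes with the largest rise (left) and the 10 with the largest fall (right) with PDGF. Red points are the 3 PDGF arrays and dark points the 5 control arrays, which do not overlap for any gene shown, and bars give the range of the 5 VEGF and the 5 IL-22-Fc arrays, of which the IL-22-Fc bars reach the PDGF arrays for Sprr2f and Actc1.

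Retnla, a small secreted protein that marks this state, was at 13.38, 13.08 and 13.40 with PDGF and at 7.19, 8.00, 8.15, 8.53 and 8.86 in the control. Every PDGF array was far above every control array, among the brightest probe sets of the array. The difference was 5.14, or 35.3-fold (SE 0.34, adjusted p = 4.2e-10 from limma), with a covariate value of 4.27 (adjusted p = 0.058). Retnla was higher by 1.70 in the untreated array with a low 5' Gapdh level and differed by -0.09 in the IL-22-Fc array.

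Chil4, a chitinase-like lectin, was at 7.66, 8.31 and 7.98 with PDGF and at 3.91, 3.99, 3.75, 3.79 and 4.01 in the control, a rise of 4.09 (SE 0.12, adjusted p = 7.2e-15 from limma; covariate value 5.05, adjusted p = 2.7e-08). Its relative Chil3 was at 13.62, 13.67 and 13.60 against 10.31, 10.85, 10.02, 10.10 and 8.48, a rise of 3.67. Both were separated from the control without overlap, Chil4 from near the bottom of the scale and Chil3 to near its top. Their sequences are closely similar, so signal shared between the probe sets was not tested. In the low 5' Gapdh arrays Chil4 moved by 0.42 and 0.17 and Chil3 by -3.53 and 0.16, in the order untreated and IL-22-Fc.

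Ccl24, a chemokine for eosinophils that such macrophages release, was at 11.66, 10.77 and 11.08 with PDGF and at 6.93, 7.37, 7.01, 7.19 and 7.12 in the control. The rise was 4.05 (SE 0.18, adjusted p = 2.8e-12 from limma) with a covariate value of 2.81 (adjusted p = 0.0077). Pdcd1lg2, the PD-L2 ligand of the T cell receptor PD-1, rose from 3.71 to 3.99 in the control to 7.71, 7.48 and 7.41 with PDGF, by 3.69, and its covariate value was also 3.69 (adjusted p = 0.0012). Arg1, the arginase of this state, was at 13.07, 12.83 and 12.94 against 11.44, 11.55, 11.72, 10.75 and 10.62, a smaller rise of 1.73 with a standard error (SE) of 0.46 (adjusted p = 0.0056 from limma). The control arrays spread over a wider range for Arg1 than the PDGF arrays did. Members not called included the IL-4 receptor chain Il4ra at 0.46, Folr2 at 0.46 and Trem2 at 0.14. With the covariate 3 of the 18 members were called, all higher, where 0.252% of all probe sets were called higher.

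The promoters of Retnla and Pdcd1lg2 are shown because both genes rose together and both hold the letters TTCNNNNGAA, the spacing that STAT6 is known to prefer, in the 300 bases from 250 before to 50 after the gene start. Capitals mark the match, 145 and 82 bases before the start. The sequences are those of RefSeq on GRCm38.p6, at chr16:48842359-48842658, plus strand for Retnla, and at chr19:29410669-29410968, plus strand for Pdcd1lg2, each printed 5' to 3' on the strand of the gene.
Retnla: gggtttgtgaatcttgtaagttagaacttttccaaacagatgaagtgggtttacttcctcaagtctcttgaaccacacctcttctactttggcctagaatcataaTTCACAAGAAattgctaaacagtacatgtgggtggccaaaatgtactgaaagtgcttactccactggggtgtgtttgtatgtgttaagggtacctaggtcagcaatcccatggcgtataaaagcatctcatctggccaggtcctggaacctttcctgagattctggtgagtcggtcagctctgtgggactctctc
Pdcd1lg2: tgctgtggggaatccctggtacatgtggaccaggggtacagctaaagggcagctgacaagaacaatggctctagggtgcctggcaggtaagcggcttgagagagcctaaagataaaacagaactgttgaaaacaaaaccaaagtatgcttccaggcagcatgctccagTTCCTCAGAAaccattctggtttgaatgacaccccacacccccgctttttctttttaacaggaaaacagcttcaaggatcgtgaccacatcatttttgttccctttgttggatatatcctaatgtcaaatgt
On either strand these letters occurred in 8.01% of 27025 genes with such a window. Among the alternatively activated macrophage genes they occurred in 2 of the 7 genes called higher that have a window and in 1 of the 6 not called, which is a description of letters and not of binding.

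Rnase2a, a ribonuclease of the eosinophil-associated family, had the largest measured difference of all. It was at 11.97, 11.80 and 12.11 with PDGF and at 3.13, 3.53, 3.28, 4.08 and 4.04 in the control. The control levels were near the bottom of the scale and the PDGF levels well above the median probe set, a difference of 8.35 (SE 0.24, adjusted p = 7.2e-15 from limma). The covariate value was 7.21 (adjusted p = 4.7e-05). Rnase2a differed by -1.14 in the untreated array with a low 5' Gapdh level and by 0.01 in the IL-22-Fc array.

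Most other measured genes of eosinophils were not called. The eosinophil list has 14 members, of which 9 have a probe set and Ear1, Ear2, Ear6, Ear10 and Cebpe have none named here. Of the 9 measured 2 were higher, Rnase2a and Alox15, a lipoxygenase also listed for macrophages, at 1.32, and 0 lower. The defining markers stayed near the bottom of the scale in both groups. Epx, the eosinophil peroxidase, was at 3.38 to 3.51 with PDGF and 3.17 to 3.66 in the control, and Prg2, the major basic protein, at 3.47 to 3.57 and 2.99 to 3.57. Siglecf, a surface lectin, was at 2.75 to 3.48 and 2.42 to 2.85, and Ccr3, the receptor of Ccl24, at 2.87 to 3.19 and 2.83 to 3.07. Rnase2b, the closest relative of Rnase2a in the table, was at 9.01 to 9.86 with PDGF and at 9.64 to 10.38 in the control and was not called, at -0.40. The summed intensity of the list, 4510 to 5450 with PDGF and 897 to 1433 in the control, thus rested on Rnase2a.

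The cytokines that induce the alternatively activated state, Il4 and Il13, were not detected as changed, and neither was Il5. Il4, Il13 and Il5, chosen after their values were seen, were at 3.55 to 3.98, 3.98 to 4.26 and 3.03 to 3.42 with PDGF, near the bottom of the scale, and differed by 0.00, 0.22 and 0.04 from the control. Of 20 type 2 cytokines, receptors and signalling genes 1 was higher and 2 lower. The higher one was Crlf2, a chain of the receptor for the epithelial cytokine Tslp, at 0.74, and the lower ones were Tslp itself at -1.32 (0.25 with the covariate) and the IL-13 receptor chain Il13ra1 at -0.75. Stat6 was not called, at 0.36, and the epithelial alarm cytokine Il33 was not called either, at -0.79 (adjusted p = 0.053 from limma).

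Other genes of macrophages and dendritic cells split. Of 25 monocyte and macrophage markers 7 were higher and 4 lower, where 6.47% and 9.56% of all probe sets were. Their median was 0.27. The defining markers Csf1r, the receptor of the macrophage growth factor, and Cd68, a lysosomal glycoprotein, were higher by 0.76 and 1.08, while Adgre1, a surface receptor of mouse macrophages, did not pass, at -0.23. Cd163, the haemoglobin scavenger receptor, was at 13.07, 12.97 and 13.03 with PDGF and at 11.21, 11.49, 11.21, 11.47 and 11.23 in the control. The 3 PDGF arrays were nearly level for Cd163 and above all control arrays, by 1.70 (SE 0.16, adjusted p = 4.1e-08 from limma). Lgmn, a lysosomal protease, was higher by 1.03. The scavenger receptors Marco and Msr1 were lower, at -2.0 and -1.03, as was Lyz2, the macrophage lysozyme, at -1.11. The summed intensity of the list was 66772 to 68700 with PDGF and 53619 to 61195 in the control, a smaller step than for the alternatively activated genes.

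Vsig4, a complement receptor of tissue macrophages, went the opposite way to Cd163. It was at 3.56, 3.77 and 4.13 with PDGF and at 7.52, 7.50, 7.55, 8.15 and 8.23 in the control, a fall of -3.97 (SE 0.18, adjusted p = 2.8e-12 from limma; covariate value -4.28, adjusted p = 0.00082). All PDGF arrays were near the bottom of the scale and below every control array. Vsig4 was lower in the arrays with a low 5' Gapdh level too, at -2.21 in the untreated and -0.82 in the IL-22-Fc array.

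Among dendritic and Langerhans cell markers, 8 of 21 were higher and 2 lower. Batf3, a transcription factor of cross-presenting dendritic cells, was at 7.55, 7.15 and 6.98 against 5.18, 5.24, 5.45, 5.58 and 5.81, higher by 1.77. Itgax, the CD11c integrin, was higher by 1.43, the MHC class II genes H2-Ab1 and H2-DMa by 1.31 and 1.24, and Cd74, their invariant chain, by 1.07, whereas the costimulator Cd86 was lower, at -1.54. Cd207, the langerin of Langerhans cells, was not called, at -0.35. The Cd86 fall had a counterpart of -1.07 in the untreated array with a low 5' Gapdh level and of -0.15 in the IL-22-Fc array.

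The CD209 lectins, pathogen receptors of macrophages and dendritic cells that lie in a cluster of similar genes, did not move as 1 group. Of 7 members 3 were higher and 2 lower. Cd209e, which the study had picked out on these arrays, was at 8.74, 8.06 and 8.81 with PDGF and at 5.04, 5.39, 5.70, 6.08 and 5.90 in the control, with all PDGF arrays above the control arrays. The rise was 2.92 (SE 0.28, adjusted p = 8.5e-08 from limma), and the covariate value was 1.54 (adjusted p = 0.40). Cd209d and Cd209a were higher by 1.44 and 1.06, Cd209b and Cd209g lower, at -0.87 and -0.74, and Cd209c and Cd209f were not called, at 0.43 and -0.55. Cd209e was higher by 1.06 in the untreated array with a low 5' Gapdh level. The members are similar in sequence, and shared signal between their probe sets was not tested.

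Syk, the kinase that carries signals of ITAM-bearing and C-type lectin receptors and another gene the study had picked out, was at 8.35, 8.29 and 8.16 with PDGF and at 6.76, 6.71, 6.96, 6.41 and 7.10 in the control. The groups did not overlap, and the rise was 1.48 (SE 0.16, adjusted p = 3.6e-07 from limma; covariate value 2.25, adjusted p = 0.027). Of 26 genes of the Syk and ITAM pathway 11 were higher and 4 lower. Pik3cd, the leukocyte PI3-kinase subunit, Inpp5d, the phosphatase SHIP1, and Fgr, a Src-family kinase, were higher by 1.12, 1.10 and 1.06. The exchange factor Vav3 was lower, at -2.28, and the adaptor Bcl10 at -1.04. Tyrobp, the DAP12 adaptor, and the Fc receptor Fcgr3 were not called, at 0.11 and 0.37. Of the 11 higher members 6 were at least 1.5-fold higher in the IL-22-Fc array with a low 5' Gapdh level, Syk among them at 1.05, and 0 in the untreated array, where Syk differed by 0.03.

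Lysosome genes leaned upward. Of 36 lysosomal hydrolases and membrane proteins 9 were higher and 2 lower, with a median of 0.34, and of 22 subunits of the V-type ATPase, the pump that acidifies lysosomes, 6 were higher and 1 lower, with a median of 0.30. Ctsl, the protease cathepsin L, was at 8.73, 8.62 and 8.55 with PDGF and at 6.60, 6.59, 7.16, 7.14 and 7.10 in the control. The PDGF arrays were all above the control arrays, by 1.72 (SE 0.15, adjusted p = 2.0e-08 from limma). The hydrolases Naglu and Gla and the calcium channel Mcoln1 were higher by 1.03, 0.98 and 0.95, and Gusb and Ppt1 lower, at -1.18 and -1.11. Without PDGF array 3 or control array 5 the hydrolase list had 4 lower members. Atp6v0d2, a subunit rich in macrophages and osteoclasts, was higher by 1.42, Atp6v0b by 1.09, and Atp6v1a, the catalytic subunit, was lower, at -1.31. Atp6v1a was also lower, at -1.58, in the untreated array with a low 5' Gapdh level and at -0.17 in the IL-22-Fc array.

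**Figure D4:**
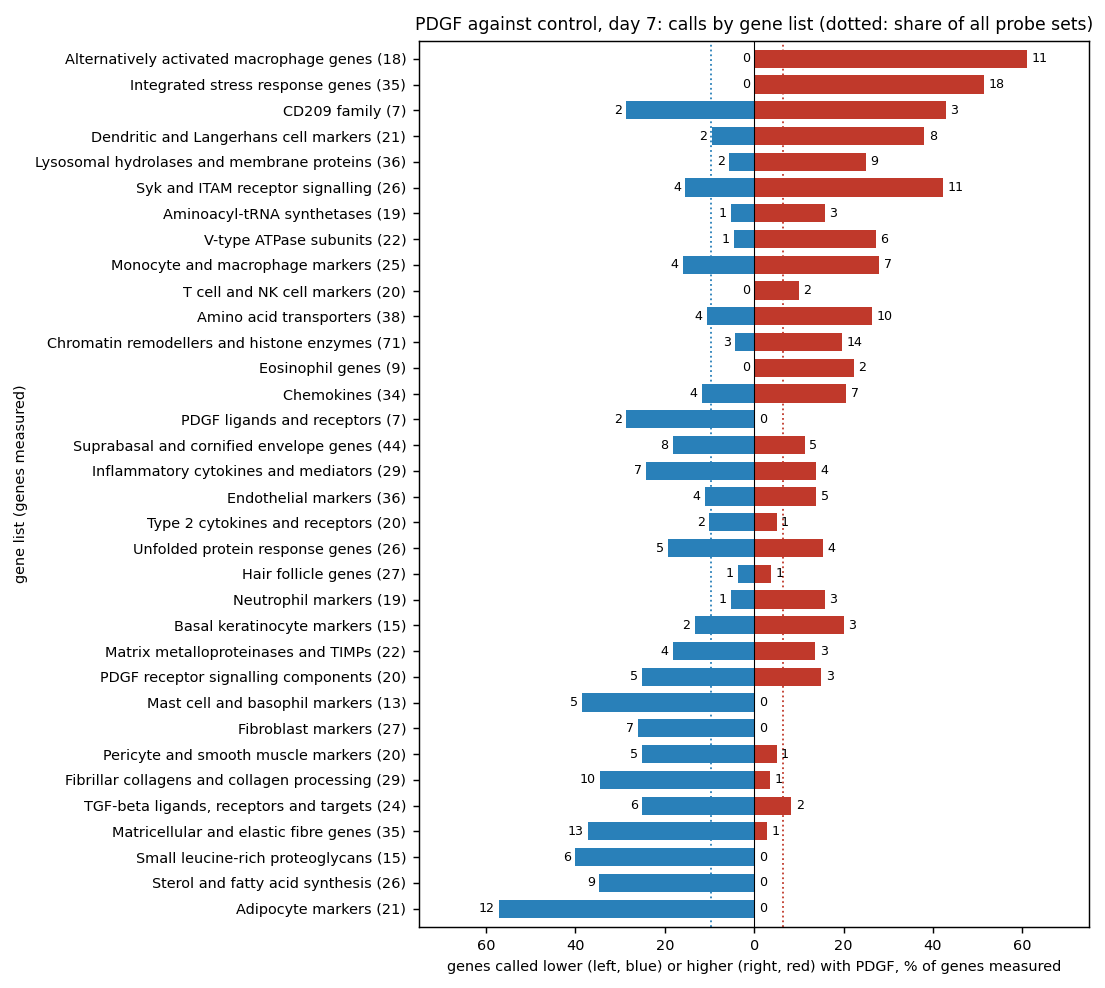
Share of the measured genes of each list called higher (red, right) or lower (blue, left) with PDGF on day 7, with the number of genes called beside each bar, the number measured in brackets and dotted lines at the shares of all probe sets, 6.47% and 9.56%. Alternatively activated macrophage and integrated stress response genes have no lower call, and adipocyte markers, sterol and fatty acid synthesis and small leucine-rich proteoglycans have no higher call.

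After the alternatively activated macrophage genes, the integrated stress response had the largest share of rises among the 59 lists. Of 35 measured genes 18 were higher and 0 lower, with a median of 0.67. In 25 of the 35 every PDGF array was above every control array, against 19.4% of all probe sets. The summed intensity was 18333 to 20344 with PDGF and 12977 to 13756 in the control. Cth, the enzyme that makes cysteine from cystathionine, was at 7.31, 6.97 and 6.96 with PDGF and at 4.65, 4.97, 4.35, 4.32 and 3.94 in the control. The PDGF arrays were close together and all above the control arrays, and the rise was 2.63 (SE 0.20, adjusted p = 2.5e-09 from limma; covariate value 3.21, adjusted p = 0.014). Cth was also higher by 2.01 in the untreated array with a low 5' Gapdh level, but not in the IL-22-Fc array, at -0.53.

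Fgf21, a hormone of the fibroblast growth factor family that ATF4 is known to induce and a gene the study had picked out, was at 7.21, 6.76 and 6.18 with PDGF and at 5.13, 5.11, 4.92, 4.77 and 4.79 in the control. The PDGF arrays spread over 1 log2 unit and all lay above the control arrays. The rise was 1.77 (SE 0.18, adjusted p = 1.3e-07 from limma), with a covariate value of 1.25 (adjusted p = 0.29). Trib3, a pseudokinase that restrains this program, was at 7.81, 7.72 and 7.49 against 6.36, 6.09, 6.20, 6.08 and 6.16, higher by 1.49 (covariate value 1.55, adjusted p = 0.035 from limma). Chac1, an enzyme that breaks down glutathione, was higher by 1.23 and Slc7a5, a carrier of large neutral amino acids, by 1.44. Neither Atf4 nor its partner Cebpb was called, at 0.51 and -0.09, nor was Eif4ebp1, a brake on translation, at 0.51. In the low 5' Gapdh arrays Fgf21 moved by -0.18 and 0.18 and Trib3 at -0.12 and 0.11, in the order untreated and IL-22-Fc. Of the 18 higher members 5 were at least 1.5-fold higher in the untreated array and 1 in the IL-22-Fc array. Among all higher calls these shares were 25.8% and 12.1%. With the covariate 4 of the 35 genes were called, all higher, where 0.252% of all probe sets were called higher.

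The promoters of Trib3, Fgf21 and Chac1 are shown because these genes rose together and each holds the letters TGATGNAA, the core of the C/EBP-ATF response element through which ATF4 is known to act. Capitals mark the match, which in these genes lies on the strand opposite to the one printed, beginning at base 15 of the transcript in Trib3 and 139 and 193 bases before it in Fgf21 and Chac1. The windows, from RefSeq on GRCm38.p6, are chr2:152344011-152344310, minus strand for Trib3, chr7:45615441-45615740, minus strand for Fgf21 and chr2:119350992-119351291, plus strand for Chac1.
Trib3: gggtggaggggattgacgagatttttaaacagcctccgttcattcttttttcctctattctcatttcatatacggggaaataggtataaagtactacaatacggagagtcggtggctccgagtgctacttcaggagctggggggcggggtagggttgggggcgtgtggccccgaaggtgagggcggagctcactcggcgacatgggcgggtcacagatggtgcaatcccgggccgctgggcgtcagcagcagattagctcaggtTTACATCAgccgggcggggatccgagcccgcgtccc
Fgf21: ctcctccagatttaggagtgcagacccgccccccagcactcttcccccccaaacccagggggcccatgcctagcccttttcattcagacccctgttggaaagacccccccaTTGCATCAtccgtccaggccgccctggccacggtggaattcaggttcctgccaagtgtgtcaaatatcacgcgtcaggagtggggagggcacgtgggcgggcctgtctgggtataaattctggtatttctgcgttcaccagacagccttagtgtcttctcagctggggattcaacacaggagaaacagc
Chac1: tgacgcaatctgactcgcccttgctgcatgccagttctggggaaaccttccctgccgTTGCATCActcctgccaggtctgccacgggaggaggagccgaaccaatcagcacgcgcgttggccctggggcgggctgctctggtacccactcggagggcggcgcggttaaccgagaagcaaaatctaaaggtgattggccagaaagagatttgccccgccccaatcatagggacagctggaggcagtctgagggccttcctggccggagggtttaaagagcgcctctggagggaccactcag
These letters occurred on either strand in 4.51% of the 27025 genes with a window. Among the integrated stress response genes they occurred in 5 of the 15 called higher that have a window and in 4 of the 15 not called. The other 2 of the 5 are Asns and Pck2, which were chosen after their values were seen and were higher by 0.91 and 1.09.

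**Figure D5:**
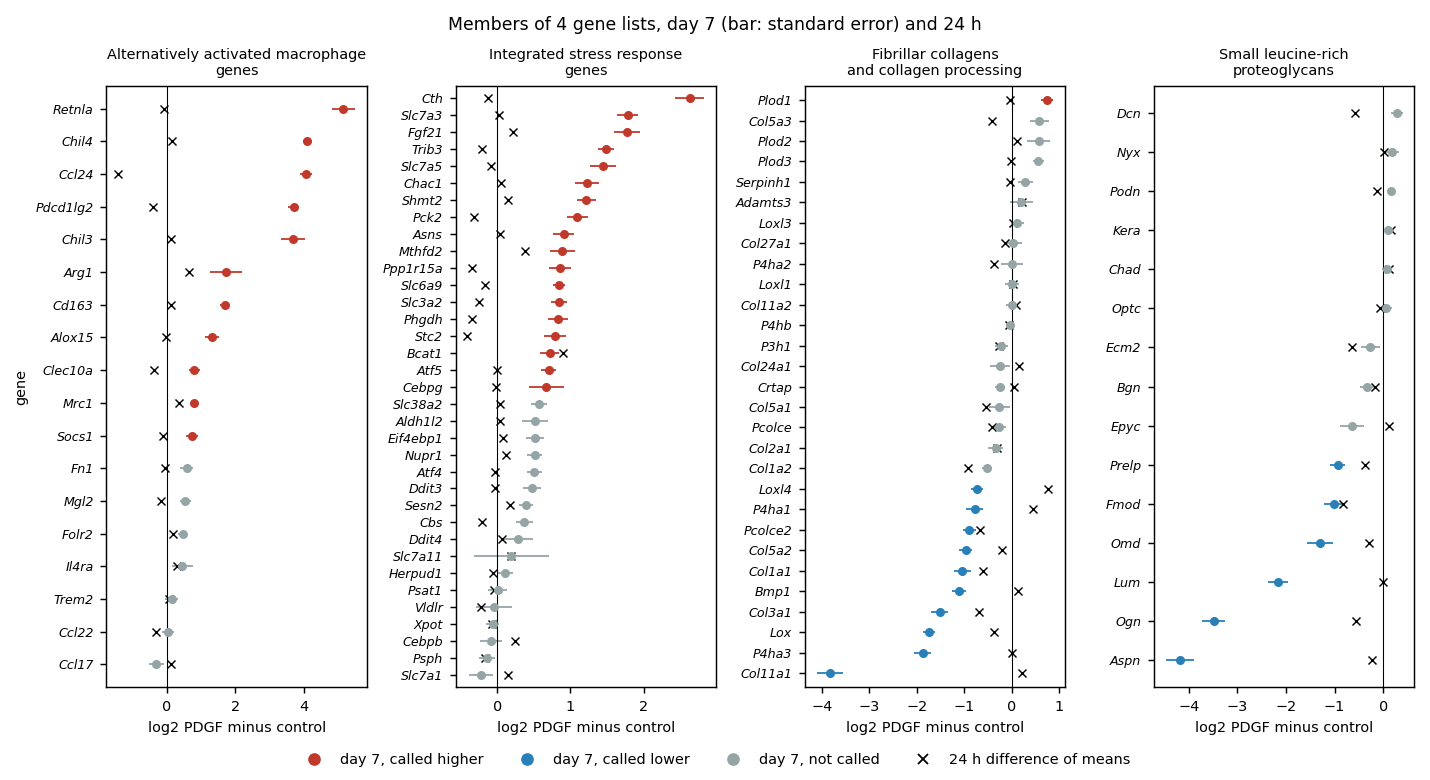
Log2 difference of PDGF minus control for every measured gene of 4 lists, with points for day 7 (red called higher, blue called lower, grey not called, bar for the standard error) and crosses for the difference of the group means 24 h after 1 dose. The called genes at the ends of the lists lie away from 0 on day 7, up to 5.14 for Retnla and down to -4.18 for Aspn, where the 24 h crosses of these genes are at -0.09 and -0.22.

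Amino acid transporters had 10 of 38 measured members higher and 4 lower. Slc7a2, which carries arginine and other cationic amino acids, was at 9.81, 9.42 and 9.75 with PDGF and at 5.22, 5.30, 5.02, 5.13 and 4.88 in the control. The separation was wide, 4.55 (SE 0.25, adjusted p = 4.2e-11 from limma; covariate value 4.68, adjusted p = 0.0079). Slc7a3, a carrier of the same class and a gene the study had picked out, was at 6.82, 6.18 and 6.08 against 4.44, 4.62, 4.51, 4.83 and 4.49, higher by 1.78 (covariate value 1.66, adjusted p = 0.089 from limma). Slc7a2 and Slc7a3 moved by at most 0.15 in size in either array with a low 5' Gapdh level, while 2 of the 10 higher members were at least 1.5-fold higher in each. Slc38a4 and Slc6a14 were lower, at -1.78 and -1.65. Of 19 aminoacyl-tRNA synthetases 3 were higher, Farsb, Wars and Vars at 0.73, 0.63 and 0.62, and 1 was lower, Iars at -0.91. Without PDGF array 1 the synthetases had 1 higher member.

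Genes of protein folding in the endoplasmic reticulum did not move with the stress response genes. Of 26 unfolded protein response genes 4 were higher and 5 lower, with a median of 0.07. Canx, the chaperone calnexin, was lower, at -1.70, Dnajc3, a co-chaperone, at -1.17 and Xbp1, a transcription factor of that response, at -0.77, while the oxidase Ero1a was higher by 0.73. Hspa5, the main chaperone BiP, was not called, at -0.33. Canx was also lower, at -1.15, in the untreated array with a low 5' Gapdh level and at -0.63 in the IL-22-Fc array.

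Falls with PDGF were frequent in genes of connective tissue and fat. Of 15 measured small leucine-rich proteoglycans, which coat and space collagen fibrils, 6 were lower and 0 higher, with a median of -0.33. The summed intensity of the list was 4845 to 7097 with PDGF and 11448 to 18998 in the control. Aspn, or asporin, was at 5.75, 7.27 and 7.45 with PDGF and at 11.27, 10.49, 10.90, 11.02 and 11.34 in the control. The PDGF arrays were all below the control arrays, and array 1, with the lowest 5' Gapdh, was the lowest of them. The fall was -4.18 (SE 0.29, adjusted p = 1.0e-09 from limma), with a covariate value of -3.92 (adjusted p = 0.049). Aspn was lower, at -2.63, in the untreated array with a low 5' Gapdh level and at -1.83 in the IL-22-Fc array.

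Ogn, or osteoglycin, was at 5.44, 6.32 and 5.90 against 9.81, 8.96, 9.15, 9.40 and 9.58, a fall of -3.49 (covariate value -4.17, adjusted p = 0.0077 from limma). Ogn too was lower in both low 5' Gapdh arrays, at -1.35 and -1.84. Lum, or lumican, was at 9.61, 10.54 and 10.81 against 12.57, 12.15, 12.54, 12.37 and 12.83, lower, at -2.17, and was higher by 0.64 in the untreated low 5' Gapdh array and lower, at -0.75, in the IL-22-Fc array. Array 1 was again the lowest PDGF array for Ogn and Lum. Bgn, or biglycan, and Dcn, or decorin, were not called, at -0.33 and 0.28. Of the 6 lower members 4 were at least 1.5-fold lower in each of the 2 low 5' Gapdh arrays.

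Of 29 fibrillar collagens and genes of collagen processing 10 were lower and 1 higher, with a median of -0.25. The higher count was 2 without PDGF array 2 or control array 3 and 4 without control array 5. Col11a1, the alpha 1 chain of collagen XI, was at 3.00, 3.62 and 3.47 with PDGF and at 7.56, 6.02, 6.98, 7.63 and 7.81 in the control. The PDGF arrays were at the bottom of the scale and below all control arrays, with a difference of -3.83 (SE 0.27, adjusted p = 1.2e-09 from limma; covariate value -3.74, adjusted p = 0.046). Col11a1 was higher by 5.53 in the untreated low 5' Gapdh array, which differs from its group in hair genes as well. It differed by -0.11 in the IL-22-Fc array, and the part of the 5' level was not tested.

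The abundant collagens changed less. Col3a1 was lower, at -1.52, Col1a1 at -1.04, and Col1a2 was not called, at -0.52. Col1a1 was higher by 1.97 in the untreated low 5' Gapdh array and differed by -0.02 in the IL-22-Fc array. Lox, the enzyme that cross-links collagen, was at 9.46, 10.06 and 10.03 against 11.58, 11.56, 11.44, 11.70 and 11.68, lower, at -1.74 (covariate value -1.61, adjusted p = 0.046 from limma), and P4ha3, a prolyl hydroxylase subunit, was lower, at -1.88. Lox was lower, at -3.11, in the untreated low 5' Gapdh array. Of the 10 lower members 4 were at least 1.5-fold lower in the untreated low 5' Gapdh array and 1 in the IL-22-Fc array. Among all lower calls these shares were 52.6% and 29.6%.

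Matricellular and elastic fibre genes had 13 of 35 members lower and 1 higher, the latter count being 2 or 3 without any 1 array but control array 4. Among them were Ccn3, a growth regulator of the CCN family, at -2.08, Thbs1, or thrombospondin 1, at -1.86, Cthrc1, a secreted protein of wound fibroblasts, at -1.67, Mfap5, a microfibril protein, at -1.46, and Postn, or periostin, at -1.28. The sign for Thbs1 turned in the fit with the covariate, to 0.47 (adjusted p = 0.85 from limma). Ccn2, the connective tissue growth factor, was not called, at -0.58. Fibroblast markers had 7 of 27 lower and 0 higher, among them the transcription factor Prrx1 at -2.61 and Ebf1 at -1.38, and their summed intensity was 32647 to 40865 with PDGF and 41993 to 51436 in the control. Vim, the intermediate filament of fibroblasts, was not called, at -0.52, nor was Pdgfra, at 0.51. Without PDGF array 1 the fibroblast list had 4 lower and 1 higher members, and without control array 5 it also had 1 higher. Prrx1 was lower in the low 5' Gapdh arrays as well, at -1.57 and -1.28.

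Matrix-degrading enzymes showed no single direction. Of 22 matrix metalloproteinases and their inhibitors 3 were higher and 4 lower. The inhibitors Timp3 and Timp2 were lower, at -2.04 and -0.98, and Timp1 was higher by 0.77. The collagenase Mmp14 was lower, at -0.95, and Mmp9, the gelatinase of neutrophils and macrophages, was higher by 0.79. Mmp13 and Mmp3 were not called, at 0.10 and -0.03. The sign turned with the covariate for Timp2 and Mmp14, to 0.60 and 0.12. Without PDGF array 1 the list had 1 higher member. Among 24 TGF-beta ligands, receptors and targets 6 were lower and 2 higher. The receptors Tgfbr2 and Tgfbr3 were lower, at -1.24 and -1.22, the signal carrier Smad4 at -1.09 and the activin-binding protein Fst at -1.35, while the matrix anchor Ltbp2 was higher by 1.05. Tgfbr2, Tgfbr3 and Smad4 were lower in the untreated low 5' Gapdh array, at -1.27, -2.02 and -0.61, and in the IL-22-Fc array, at -0.42, -0.65 and -0.38.

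Adipocyte markers had the largest share of falls among the 59 lists, 12 of 21 measured with 0 higher and a median of -0.62. Their summed intensity was 8678 to 12416 with PDGF and 16482 to 21058 in the control. Adipoq, the hormone adiponectin, was at 8.81 to 10.12 with PDGF and at 11.22, 11.53, 11.15, 11.21 and 10.97 in the control, lower, at -1.57 (SE 0.25, adjusted p = 4.1e-05 from limma). PDGF array 1 was the lowest and no PDGF array reached the control range. Car3, a carbonic anhydrase of fat, was lower, at -1.92, the fatty acid carrier Cd36 at -1.30 and the lipase Lpl at -1.16. Of the 12 lower members 11 were at least 1.5-fold lower in the untreated low 5' Gapdh array and 8 in the IL-22-Fc array, where the list medians were -1.76 and -0.51. With the covariate 1 member was called, Acvr1c, an activin receptor of fat, at -2.63 (adjusted p = 0.022 from limma). In that fit 0.634% of all probe sets were called lower.

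Genes of sterol and fatty acid synthesis had 9 of 26 lower and 0 higher. Hmgcs1, which makes the precursor of mevalonate, was at 8.98, 9.54 and 9.45 against 10.92, 11.07, 10.89, 11.13 and 10.60, lower, at -1.60, and Me1 and Acly, which supply NADPH and acetyl-CoA, were lower, at -1.20 and -1.02. Hmgcs1 was lower, at -1.34, in the untreated low 5' Gapdh array and at -0.78 in the IL-22-Fc array. Of the 9 lower members 6 and 5 were at least 1.5-fold lower in these arrays. Without control array 2 the list had 5 lower members, and without PDGF array 3 it had 1 higher.

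Mast cell and basophil genes had 5 of 13 members lower and 0 higher, or 1 higher without PDGF array 3 or control array 4. Hpgds, the prostaglandin D synthase, was at 5.58, 5.14 and 5.08 against 8.06, 7.75, 7.85, 7.61 and 7.89, lower, at -2.57 (covariate value -2.26, adjusted p = 0.014 from limma). Fcer1a and Ms4a2, chains of the IgE receptor, were lower, at -1.22 and -1.42, and of the defining markers Cpa3, a carboxypeptidase, was lower, at -0.79, and Cma1, a chymase, was not called, at -0.19. Of the 5 lower members 4 were at least 1.5-fold lower in each low 5' Gapdh array. Among T cell and NK cell markers 2 of 20 were higher, where 6.47% of all probe sets were. They were Gzma, a granzyme, at 1.75 and Nkg7 at 0.75, and Cd3e was not called, at 0.14. Neutrophil markers had 3 of 19 higher and 1 lower, where 6.47% and 9.56% of all probe sets were. Csf3r, the G-CSF receptor, was higher by 1.08, while S100a8, at 13.28 to 13.40 with PDGF and 12.97 to 13.69 in the control, was not called. Without PDGF array 1 the list had 1 higher and 0 lower members, and the lower call was also lost without each other array except control arrays 4 and 5. Without control array 5 it had 2 lower.

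Chemokines other than Ccl24 moved both ways, 7 of 34 higher in all and 4 lower. Ccl8 and Ccl9, attractants of monocytes, were higher by 1.38 and 1.36, and Ccl2, the main monocyte attractant, was lower, at -1.36. Cxcl13, which draws B cells, was at 4.33, 4.38 and 4.66 with PDGF and at 7.31, 7.81, 7.76, 8.18 and 7.41 in the control, lower, at -3.24 without overlap (covariate value -3.99, adjusted p = 0.047 from limma). Cxcl13 was lower, at -2.53, in the untreated low 5' Gapdh array and at -1.05 in the IL-22-Fc array. Of 29 inflammatory mediators 4 were higher and 7 lower, among the lower ones the IL-36 cytokines Il1f8, Il1f9 and Il1f6 at -2.66, -1.32 and -1.18, and the higher ones included Osm, or oncostatin M, at 1.04. The number of higher mediators was 1 without PDGF array 1 or 2 and 2 without control array 2 or 4.

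Vessel and epidermal lists were mixed. Of 36 endothelial markers 5 were higher and 4 lower, where 6.47% and 9.56% of all probe sets were. Vwf, the von Willebrand factor, was higher by 1.30 and the receptor Tie1 by 0.83, while Lyve1, a marker of lymphatic vessels and of some macrophages, was lower, at -1.65. Pecam1 and Cdh5, the defining markers, were not called, at 0.47 and -0.41. Of 20 pericyte and smooth muscle markers 5 were lower and 1 higher, with Rgs5, a pericyte marker, at -2.38 and the smooth muscle actin Acta2 not called, at -0.14. Rgs5 was lower, at -2.44, in the untreated low 5' Gapdh array and at -1.34 in the IL-22-Fc array.

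Suprabasal and cornified envelope genes had 5 of 44 higher and 8 lower, and basal keratinocyte markers 3 of 15 higher and 2 lower. Without PDGF array 1 no basal keratinocyte marker was called higher, and without PDGF array 3 the suprabasal list had 3 higher. Sprr2f, a small proline-rich protein of the cornified envelope, was at 11.51, 11.69 and 11.55 with PDGF and at 7.61, 7.84, 8.33, 8.32 and 6.07 in the control, higher by 3.95. The PDGF arrays were tightly grouped above a wide control range, and the level with PDGF was only 0.33 above that with IL-22-Fc. Dsc3, a desmosomal cadherin, was lower, at -2.13, Dsg1a at -1.58 and Dsp, or desmoplakin, at -1.52, and Krt14 was higher by 0.71. Dsc3 was lower, at -1.86 and -1.30 in the low 5' Gapdh arrays. Of 27 hair follicle genes 1 was higher and 1 lower, and the higher call was lost without PDGF array 2 or control array 4 or 5.

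Chromatin remodellers and histone enzymes had 14 of 71 members higher and 3 lower, with a median of 0.20. Chd4, an ATPase of the NuRD complex, was higher by 0.82 and Rbbp5, a subunit of histone methyltransferase complexes, by 0.83. Rbbp4, a histone chaperone, and the demethylase Kdm5a were lower, at -1.53 and -1.50. Of the 14 higher members 5 were at least 1.5-fold higher in the untreated low 5' Gapdh array and 1 in the IL-22-Fc array. Among all higher calls these shares were 25.8% and 12.1%. None of the 71 was called with the covariate, in a fit that called 0.252% of all probe sets higher and 0.634% lower. The wider standard error of that fit leaves few calls for any list.

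Genes outside these lists also stood among the largest differences. Ramp3, which partners the receptor for adrenomedullin, was at 9.26, 8.81 and 9.72 with PDGF and at 6.10, 6.14, 5.77, 6.11 and 6.03 in the control, higher by 3.23 (covariate value 3.48, adjusted p = 0.0019 from limma). Actc1, the cardiac actin, was higher by 3.09, and its level with PDGF was 0.40 above that with IL-22-Fc. Rp2, a GTPase-activating protein of Arl3, was at 3.10, 3.19 and 3.24 against 6.95, 6.73, 6.60, 6.75 and 6.83, lower, at -3.60 (covariate value -3.87, adjusted p = 0.00082 from limma). The PDGF arrays agreed closely for Rp2, at the bottom of the scale. Pkia, a protein kinase inhibitor, Sh3bgrl, Lims1, an adaptor of cell-matrix adhesions, and Zfp266 were lower, at -3.31, -3.24, -3.03 and -2.97. All 5 of these lower genes were lower in both low 5' Gapdh arrays, from -2.87 for Pkia to -0.33 for Zfp266 in the untreated and from -2.09 for Pkia to -0.54 for Lims1 in the IL-22-Fc array.

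Against all other treatments of day 7, control, IL-22-Fc and VEGF, 672 probe sets (3.25%) were higher with PDGF and 1361 (6.58%) lower, each past the threshold in all 3 contrasts. Rnase2a, Retnla, Ccl24, Chil4 and Slc7a2 had the largest smallest difference among the higher ones, from 8.21 for Rnase2a to 3.73 for Slc7a2, and Aspn, Vsig4, Rp2, Col11a1 and Ogn among the lower ones, from -3.69 for Aspn to -3.15 for Ogn. By list, 7 of the 18 alternatively activated macrophage genes, 11 of the 35 integrated stress response genes and 9 of the 38 amino acid transporters were higher than in all 3 groups, and 9 of the 29 fibrillar collagen genes and 4 of the 21 adipocyte markers were lower. The same 3 PDGF arrays enter each contrast, and the labelled doses were not matched, at 50 µg for PDGF and 20 µg for VEGF. The 5' Gapdh level of the VEGF and IL-22-Fc arrays, 12.65 to 13.26, did not overlap with that of the PDGF arrays either.

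The leading differences of day 7 were smaller or of the opposite sign 24 h after 1 dose of PDGF, in 5 PDGF and 4 control arrays. Rnase2a differed by 0.07, Retnla at -0.09, Chil4 by 0.17, Slc7a2 by 1.01 and Ccl24 at -1.40 at 24 h. Of the falls, Aspn differed by -0.22, Vsig4 at -0.34, Ogn at -0.56, Col11a1 by 0.21 and Rp2 by 1.05. The difference between the times passed in limma for all 10 genes, from 8.28 for Rnase2a (SE 0.30, adjusted p = 6.0e-12) to -4.65 for Rp2 (SE 0.35, adjusted p = 1.6e-07). Their day 7 difference chose these 10 genes and is part of the tested value, so passing is favoured by the choice. At 24 h the PDGF arrays had 5' Gapdh levels of 13.00 to 13.28 and the control arrays 12.21 to 13.27, so the 5' levels leaned the opposite way to day 7. With the 5' level as a covariate 6 of the 10 passed, all 5 higher genes and Vsig4.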

How the data were processed

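RNA from mouse skin wounds was hybridised to Affymetrix Mouse430V2 arrays. The authors summarised the arrays by RMA and deposited linear intensity values, keeping 1 probe set per Entrez gene, with RMA and limma named in the submitters' processing notes. By the paper's methods the probe set kept for a gene was its most variable one. The table was thus selected for spread, and the effect of this on the shares called was not tested. The deposited intensities had a median of 50.82 and a minimum of 3.846, so log2 was taken here, although the analysis plan had assumed values already on the log2 scale. RMA sets arrays to a common distribution, so a shift shared by most genes could not be seen. The genome build, scan dates and batches are not given in the sources used here.

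One mean per group was fitted to the 18 day 7 arrays with limma 3.58.1 (R version 4.3.3, data.table version 1.17.8), and p-values were adjusted by Benjamini-Hochberg over 20672 probe sets. A call needed an adjusted p under 0.05 and at least a 1.5-fold difference. The fit was tested on simulated data with known changes in 200 genes. The named genes were Cd209e, Syk, Fgf21 and Slc7a3, which the study shows for PDGF; the PDGF ligands and receptors; the 10 largest differences in each direction among called single-symbol probe sets without overlap; the 5 in each direction with the largest smallest change against control, IL-22-Fc and VEGF; and in each list up to 6 called members by size and 3 uncalled members by level (any member in lists under 12). The members and gene lists were chosen with earlier results of these data known. Alternatives changed the arrays fitted, normalization, filter on low values, variance model, array weights, offset, threshold, test and the 5' level as a covariate, and left out each array in turn. Promoter windows are from RefSeq, GRCm38.p6. The number of arrays limits the precision.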

Additional observations from a re-analysis of the deposited data

Results flagged for a closer look

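In untreated skin, array 5 stood far below the other arrays of its group for both 5' control probe sets, at a log2 level of 12.30 for 5' Actb and 11.14 for 5' Gapdh. Of 47 such checks 2 found an array far from its group, and chance gives about 1 in 20.

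The difference between PDGF and control wounds was itself compared between day 7 and 24 h, in limma fits with adjustment over all probe sets, for the 5 genes with the largest higher and the 5 with the largest lower day 7 difference. Since day 7 chose these genes, a smaller value at 24 h is favoured by the choice. On the log2 scale, day 7 minus 24 h was 8.28 for Rnase2a, an eosinophil-associated ribonuclease (adjusted p = 6.0e-12), 5.45 for the eosinophil chemoattractant Ccl24 (adjusted p = 4.5e-10) and 5.23 for Retnla, a product of alternatively activated macrophages (adjusted p = 5.9e-08). It was 3.93 for the chitinase-like gene Chil4 (adjusted p = 2.2e-10) and 3.54 for Slc7a2, a cationic amino acid transporter (adjusted p = 3.8e-08). Among the lower genes, it was -4.65 for Rp2 (adjusted p = 1.6e-07), -4.05 for the cartilage and matrix collagen Col11a1 (adjusted p = 2.8e-06) and -3.96 for the small leucine-rich proteoglycan Aspn (adjusted p = 6.8e-06). It was -3.62 for the complement receptor Vsig4 of tissue macrophages (adjusted p = 1.6e-07) and -2.94 for the proteoglycan Ogn (adjusted p = 1.9e-06). All 10 passed the threshold, and 6 of them did once the 5' level was a covariate. The 5' levels moved the other way at 24 h, where PDGF arrays lay at 13.00 to 13.28 for 5' Gapdh and 3 of 4 control arrays at 12.21 to 12.41, and their part in these differences was not tested.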

How the results depend on the processing

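The 5' level as a covariate moved the counts most. With it 52 probe sets were higher and 131 lower, 32 list members were called, 11 probe sets were higher and 37 lower than in control, IL-22-Fc and VEGF wounds alike, and 6 of 10 leading genes differed between the times; 164 of the 3315 calls were shared. The covariate differs between the PDGF and control arrays without overlap, so the group difference and the 5' level can hardly be told apart in that fit. Among the 31 named genes Pdgfa, Pdgfb, Pdgfc, Pdgfra and Pdgfrb had no call to lose. Of the rest 7 lost the call in the covariate fit. Their log2 differences there were 1.66 for Slc7a3, 1.54 for Cd209e, 1.25 for Fgf21 and -0.33 for Pdgfrl. Those of Retnla, Sprr2f and Chil3 were 4.27, 4.24 and 3.78. The named genes include the largest differences, so they are not typical of all calls. With no fold threshold 3900 probe sets were higher, 3307 lower and 705 list members called, Pdgfra and Pdgfb among them. At 2-fold the counts were 209, 852 and 169, and Pdgfrl was lost, as it was with the methods' t-test after Benjamini-Hochberg adjustment. Without probe sets that moved at least 1.5-fold the same way in untreated array 5, a setting chosen after seeing the data, 937 were lower, 231 list members were called and 608 were lower than in all 3 other treatments. Without those of the IL-22-Fc 24 h array 5, also chosen after seeing the data, the last count was 906. Leaving out 1 array gave 1158 to 1524 higher, 1742 to 2117 lower, 350 to 415 list members, and 568 to 832 higher and 1178 to 1469 lower than in all 3 other treatments. The 5' Gapdh difference then ran from -1.48 to -1.31 and that of Actb from -0.70 to -0.58, and all 10 leading genes differed between the times. Pdgfb was called without control array 5. With the covariate 93.9% of all calls kept their sign, and of the called genes named in the text Thbs1, Timp2, Mmp14 and Tslp turned, to 0.47, 0.60, 0.12 and 0.25, as did some genes that were not called, such as Pdgfc at -0.46. The other alternatives kept the side of the threshold for every one of the 31 named genes they tested. Of 68 counts over single lists, 57 moved by more than 1.5 times with the covariate, 28 with no fold threshold, 40 at 2-fold, 34 without the probe sets of untreated array 5, 17 without those of the IL-22-Fc array, and 2 to 7 under each other alternative that kept all arrays. Higher calls made up 40.36% of all calls, 42.81% after quantile normalization and 42.28% after median centring. No paired analysis was possible because the labels give no replicate numbers. Arrays give no read depth, and 3 arrays against 5 limit the precision.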
